A study of Homo sapiens with 9 samples.

Results

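Histones are the proteins around which DNA is wound, and the genes that encode them fall into 2 kinds, which were followed here in breast cancer cells after knockdown of the zinc transporter ZIP7. Ensembl identifiers in the count tables were matched to GENCODE release 29, and every protein-coding gene whose symbol begins with HIST1H, HIST2H, HIST3H or HIST4H was taken, together with H1F0, H1FX, H2AFJ, H2AFV, H2AFX, H2AFY, H2AFY2, H2AFZ, H3F3A and H3F3B. This gave 81 of the 58395 genes in the tables, of which 71 were cluster genes and 10 were replacement genes. The HIST1 cluster on chromosome 6 held 55 of them, between positions 25726132 and 27893843 of GRCh38, the build of GENCODE release 29. HIST2 held 12 and HIST3 held 3, both on chromosome 1, and HIST4 held 1, on chromosome 12.

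Cells of MDA-MB-231, an established line of triple-negative breast cancer, were reverse transfected with siRNA and their RNA was taken after 96 h. The control group (siNC) received a nontargeting siRNA, and the groups siZIP7_1 and siZIP7_2 received different siRNAs against SLC39A7, the gene of ZIP7. By the study's methods, siZIP7_1 was a single siRNA from Horizon and siZIP7_2 a FlexiTube siRNA from Qiagen. Each group had 3 libraries, 9 in all, of the same line, and the labels name no other genotype or drug in any group. The labels do not say that the libraries of a group came from separate cultures, so the p-values measure the spread between these libraries, which may be technical.

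Most cluster genes, also called replication-dependent, are transcribed while a cell copies its DNA, and their mRNA usually ends in a stem-loop in place of a poly(A) tail. The stem-loop is bound by the protein SLBP, which guides the processing, export and translation of the message. Replacement genes lie outside the clusters, are transcribed through the cell cycle, carry poly(A) tails and encode variants that are laid down apart from replication or in special places, such as the DNA damage mark H2AX.

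The stem-loop could be read in the annotated transcripts of 33 members, 32 of them in the clusters, and only a few versions were found. Those that occurred in more than 1 gene are shown because they mark where the standard message of a cluster gene ends. Capitals mark the 6 bases of each arm of the stem and lower case the 4 bases of the loop, 5′ to 3′, from the GENCODE transcripts.
17 genes, HIST1H2AC, HIST1H2BE, HIST1H3H and HIST2H2BE among them: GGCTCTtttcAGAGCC
5 genes, HIST1H2BC and HIST1H2BD among them: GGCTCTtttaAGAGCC
5 genes, HIST1H4H and HIST4H4 among them: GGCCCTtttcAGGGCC
3 genes, HIST1H4I, HIST2H4A and HIST2H4B: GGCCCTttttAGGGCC
H2AFX was the 1 replacement gene of 10 with such a sequence, and its copy read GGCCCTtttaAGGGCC.

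Library totals lay between 24153785 and 30454419 counts on genes, with a median of 28212443. Levels are given as counts per 1000000 counts on genes (CPM), scaled by edgeR's TMM factors, and levels of different genes were set against each other as RPKM, which also divides by exonic length in kilobases. Sums of CPM were compared between groups and not between lists, apart from the cluster share of the CPM, given beside that of the RPKM. A floor of 3 counts stood for 0.0941 to 0.129 CPM, depending on the library, and covers counting error only. SLC39A7, the targeted gene, was at 329 ± 12.5 CPM in siNC, 35.6 ± 2.83 CPM in siZIP7_1 and 19.2 ± 1.45 CPM in siZIP7_2 (SD, n = 3 each). Of 5 markers taken as high in this line, VIM, CD44, AXL, CAV1 and MSN, the lowest value in any library was 168 CPM. Of 5 taken as low, ESR1, PGR and CDH1 stayed under 5 CPM, while GATA3 was at up to 16.6 CPM and ERBB2 at up to 91.5 CPM.

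Of the 81 histone genes, 38 passed edgeR's low-count filter and were tested among 16761 genes, 29 of them cluster genes and 9 of them replacement genes. The filter asks for about 10 counts, 0.355 CPM, in at least 3 libraries. All 9 replacement genes and 17 of the 29 cluster genes reached that level in every siNC library. The other 12 cluster genes entered through the siZIP7 libraries or through a mixture of groups, so passing the filter was itself tied to a difference between groups. Of the 43 genes not tested, 20 had some counts, at most 12 in a library and at most 0.427 CPM, and 23 were at 0 in every library. The genes at 0 included HIST1H1B and HIST1H1D, which encode linker histones, and HIST3H3. The deposited tables hold no reads with several alignments, and 9 of the 23 share at least 80% of their exonic length, in windows of 50 bases, with other genes or are overlapped by them to that extent. The other 14 do so for under 5% of it.

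Summed over the clusters, histone messages were at several times their control level with each siRNA against SLC39A7, while the sum of the replacement genes was not higher. The summed level of the 71 cluster genes was 57.5, 56.7 and 64.2 CPM in the siNC libraries, 299, 245 and 317 CPM in the siZIP7_1 libraries and 676, 584 and 649 CPM in the siZIP7_2 libraries. The groups did not overlap, and their means were 59.5 ± 4.11, 287 ± 37.7 and 636 ± 47.0 CPM (SD, n = 3 each). Relative to the siNC mean this was 4.83 times with siZIP7_1 and 10.7 times with siZIP7_2. The 10 replacement genes summed to 2328 ± 66.6 CPM in siNC, 2295 ± 76.8 CPM in siZIP7_1 and 1715 ± 31.9 CPM in siZIP7_2. The siNC and siZIP7_1 sums overlapped there, and every siZIP7_2 sum lay below both. Per length, the cluster genes held 8.89% ± 0.48 of the summed histone RPKM with siNC, 25.3% ± 1.45 with siZIP7_1 and 55.9% ± 1.23 with siZIP7_2. A group of 3 against a group of 3 cannot go below p = 0.1 in an exact permutation test, so no p is given for the sums. In bulk RNA, a change in the share of cells that express a gene and a change in its RNA per cell cannot be told apart.

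**Figure D1:**
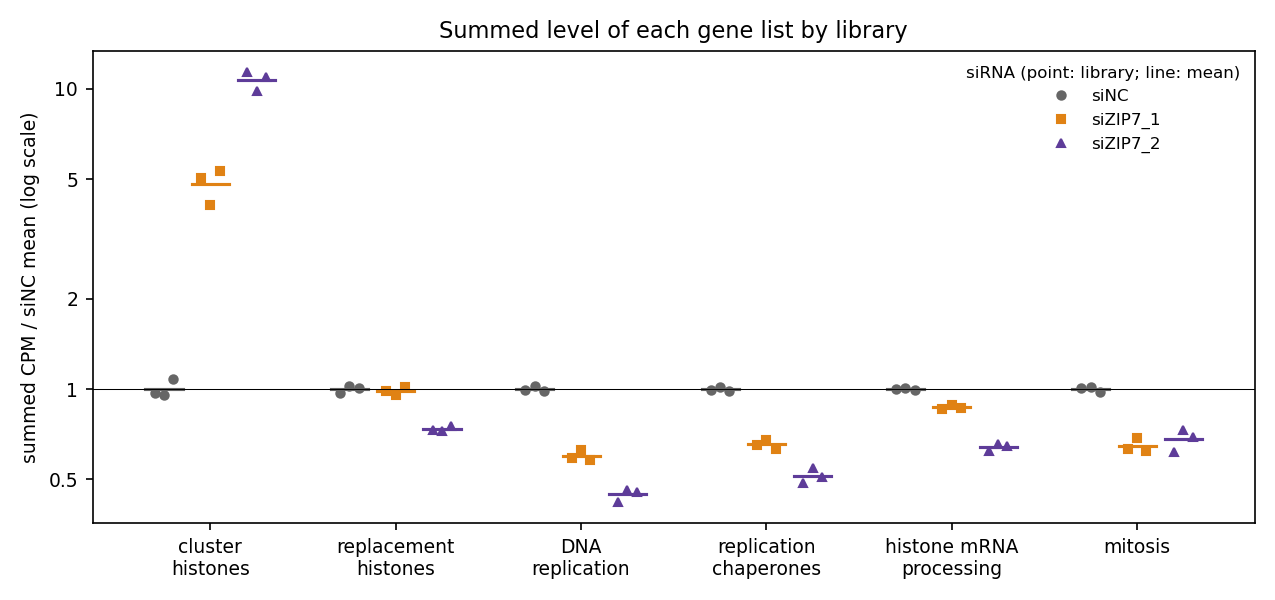
Summed CPM of the genes of each list in each library, divided by the mean of the siNC libraries, on a log axis. Points are libraries and short lines are group means. The cluster histone sum lies at 4.12 to 5.33 times the siNC mean with siZIP7_1 and at 9.83 to 11.4 times with siZIP7_2, while the DNA replication sum lies at 0.582 to 0.628 and at 0.422 to 0.463 times.

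Of the 38 genes tested with siZIP7_1 against siNC, 20 rose, 7 fell and 11 did not pass the threshold. Over all genes tested, 34.8% rose and 35.9% fell. With siZIP7_2 against siNC, 28 rose, 8 fell and 2 did not pass, where 38.5% of all genes tested rose and 39.3% fell. Between siZIP7_2 and siZIP7_1, 26 were higher with siZIP7_2, 6 were lower and 6 did not pass, where 38.1% of all genes tested were higher and 40.6% lower. Both comparisons with siNC use the same 3 control libraries and are not independent of each other. A call needed a p below 0.05 in edgeR's quasi-likelihood test after adjustment by Benjamini and Hochberg over all genes tested. The median log2 fold change of the 38 genes was 0.86 with siZIP7_1, 2.07 with siZIP7_2 and 0.76 between them, where the medians over all genes tested were -0.007, -0.002 and -0.022. The 1 member with no count in any siNC library lay far enough from the middle that its lower bound left these medians the same.

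Called rises were mostly in the clusters. Among the 29 cluster genes, 18 rose and 2 fell with siZIP7_1, and 26 rose and 2 fell with siZIP7_2. Between the siRNAs, 22 cluster genes were higher with siZIP7_2 and 1 was lower, of which 12 and 1 were among the 17 that reached the filter's level in every siNC library. Among the 9 replacement genes, 2 rose and 5 fell with siZIP7_1, and 2 rose and 6 fell with siZIP7_2. Of those 17, 14 rose and 2 fell with siZIP7_1, and 15 rose and 2 fell with siZIP7_2. With siZIP7_1, 16 of the 38 members were called at least 2-fold higher and 3 at least 8-fold higher, where the shares of all genes tested were 11.0% and 1.03%. With siZIP7_2, 26 were called at least 2-fold higher and 13 at least 8-fold higher, where the shares of all genes tested were 16.3% and 2.65%. These counts and the medians above take in the 12 cluster genes that did not reach the filter's level in every siNC library. A large rise of such a gene is tied to its being tested, and the 17 were not counted apart here. Groups did not overlap for 30 members with siZIP7_1, 20 above siNC and 10 below, and for 36 members with siZIP7_2, 28 above and 8 below. Over all genes tested, 35.5% lay above siNC and 36.5% below without overlap with siZIP7_1, and 38.9% and 39.9% with siZIP7_2.

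**Figure D2:**
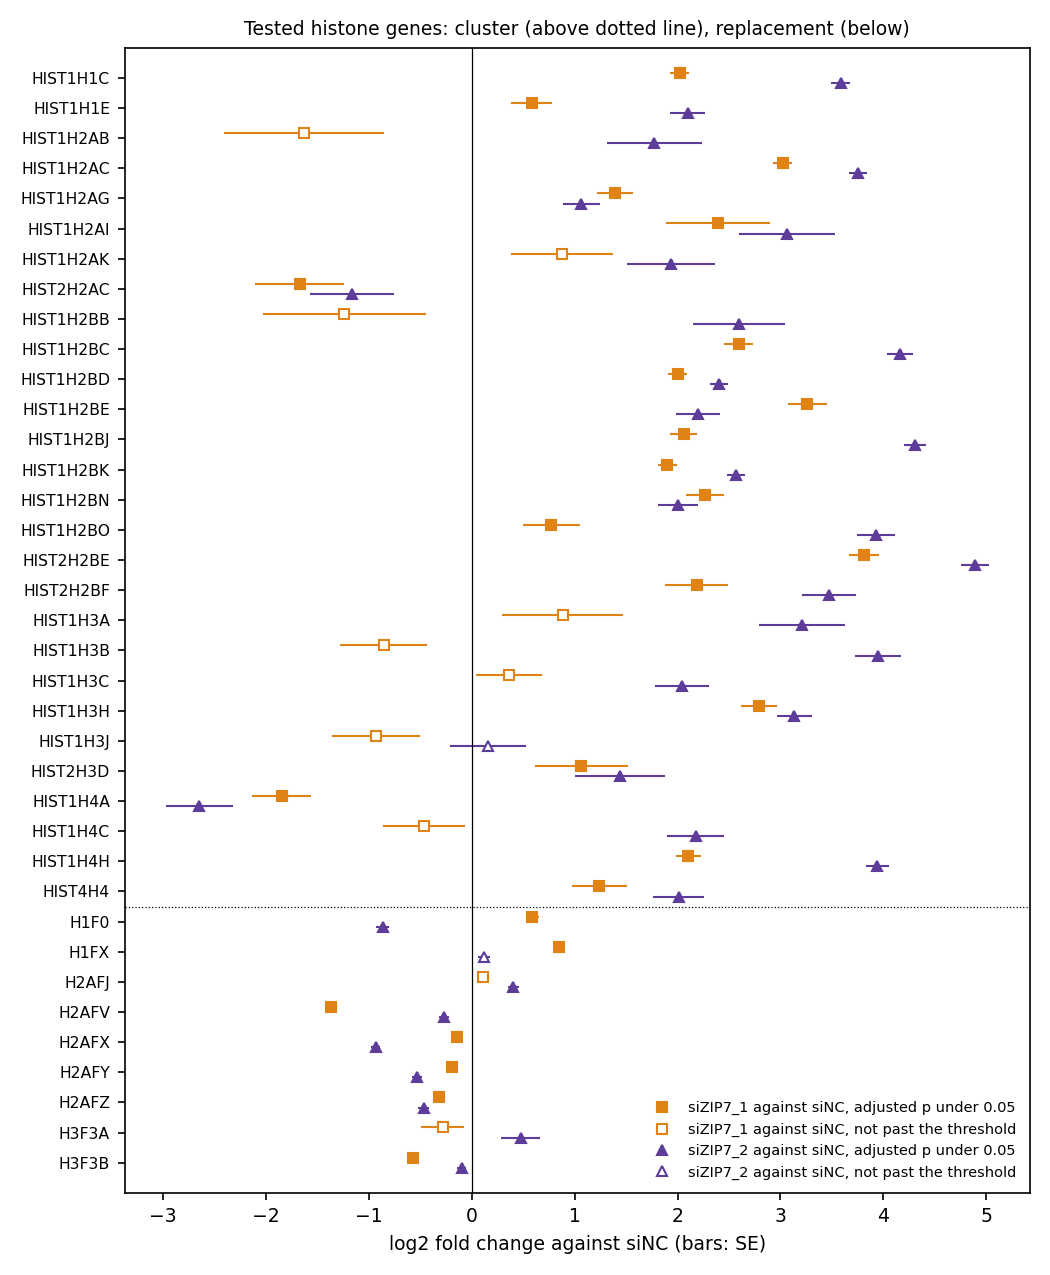
log2 fold change against siNC of 37 tested histone genes, with bars of 1 SE. Squares stand for siZIP7_1 and triangles for siZIP7_2, filled where the adjusted p in edgeR's test is under 0.05. HIST1H1T, at 0 in every siNC library, is not drawn. Cluster genes lie mostly to the right of 0 and replacement genes on both sides of it.

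Several measures of the libraries moved along with the groups. The share of reads that fell on no gene was 7.43 to 8.28% with siNC, 7.80 to 9.62% with siZIP7_1 and 9.995 to 11.5% with siZIP7_2. Of 10 RNAs that normally carry no poly(A) tail, 6, RN7SK, RMRP, RPPH1, RN7SL1, RNY3 and SCARNA2, were at 0 in every library, and 3 more were under 0.1 CPM. RN7SL2, an RNA of the signal recognition particle, was the exception, at 43.3, 55.4 and 30.6 CPM in siNC, 21.0, 8.0 and 66.6 CPM in siZIP7_1 and 4.58, 4.54 and 3.96 CPM in siZIP7_2. Its siNC and siZIP7_1 libraries overlapped and its siZIP7_2 libraries were the lowest. The sources used here do not state whether poly(A) RNA was selected, and the part of RNA selection in the counts of stem-loop messages was not tested. Of 9 markers of leukocytes, endothelium and fibroblasts, 5 were tested, and the list summed to 56.7 to 63.5 CPM in siNC, 109 to 117 CPM in siZIP7_1 and 192 to 217 CPM in siZIP7_2. Of the 5, 3 rose and 2 fell with siZIP7_1, and 4 rose with siZIP7_2. COL1A1 made up most of the sum, at 52.0 to 57.3, 108 to 115 and 172 to 194 CPM. CD14 was at 1.29 to 2.40 CPM in siNC, 0.515 to 0.583 CPM in siZIP7_1 and 8.72 to 11.9 CPM in siZIP7_2, and PECAM1 at 2.88 to 3.28, 0.0627 to 0.172 and 7.88 to 9.08 CPM. PTPRC, CD3E and DCN, listed for leukocytes, T cells and fibroblasts, stayed at 0 to 1.02 CPM in every library. CD14, also listed for leukocytes, and COL1A1, also listed for fibroblasts, were above that with siZIP7_2, so the list did not go one way. The part of these markers in the histone results was not tested.

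Linker histones, the H1 proteins that bind the DNA between nucleosomes, differed between the cluster gene and the replacement gene with the most reads. HIST1H1C, which encodes H1.2 (ENSG00000187837, chromosome 6, 26055787 to 26056428, minus strand), was at 17.9, 15.6 and 19.8 CPM in the siNC libraries, 76.0, 58.6 and 82.3 CPM in the siZIP7_1 libraries and 232, 193 and 218 CPM in the siZIP7_2 libraries. The 3 groups did not overlap and stood in that order. It rose 4.06-fold with siZIP7_1 (edgeR log2 fold change 2.02, SE 0.096, adjusted p = 2.24e-17) and 12.0-fold with siZIP7_2 (3.59, SE 0.094, adjusted p = 2.41e-23). H1F0, which encodes H1.0, the linker histone of cells that have stopped dividing (ENSG00000189060, chromosome 22, 37805093 to 37807436, plus strand), was at 534, 519 and 561 CPM in siNC, 815, 725 and 887 CPM in siZIP7_1 and 324, 264 and 298 CPM in siZIP7_2. Here every siZIP7_1 library lay above siNC and every siZIP7_2 library below it. H1F0 rose by 0.59 on the log2 scale with siZIP7_1 (SE 0.064, edgeR adjusted p = 2.37e-09) and fell by 0.86 with siZIP7_2 (SE 0.065, adjusted p = 6.94e-13). The log2 difference of siZIP7_2 against siZIP7_1 was -1.45 (SE 0.065, edgeR adjusted p = 3.72e-18). It was the only tested histone gene called in opposite directions with the 2 siRNAs.

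H1FX, the replacement gene of H1X, was at 117, 128 and 129 CPM in siNC, 241, 201 and 231 CPM in siZIP7_1 and 137, 130 and 139 CPM in siZIP7_2. Its siZIP7_1 libraries stood apart from the rest, with a log2 fold change of 0.85 (SE 0.056, edgeR adjusted p = 5.20e-14). With siZIP7_2 the log2 fold change was 0.12 (SE 0.057, edgeR adjusted p = 0.0593), although those libraries also lay above every siNC library, and a call was made under several alternatives. In the annotation, 22.9% of its length is overlapped by another gene. HIST1H1E, which encodes H1.4, was at 1.09, 1.63 and 1.28 CPM in siNC, 2.15, 1.89 and 1.91 CPM in siZIP7_1 and 6.68, 4.80 and 5.61 CPM in siZIP7_2. It was called higher in both comparisons, 1.5-fold and 4.28-fold, but the call with siZIP7_1 was lost without siNC replicate 1 (log2 fold change 0.45). HIST1H1T, the testis linker histone, was at 0 in all siNC libraries and at 0.893, 1.15 and 1.35 CPM in siZIP7_2, at least 9.84-fold higher than siNC taken at the floor of 3 counts per library.

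Per length, the order of these linker histones changed between groups. H1F0 was at 229 ± 9.04 RPKM with siNC, 345 ± 34.8 RPKM with siZIP7_1 and 126 ± 12.8 RPKM with siZIP7_2. HIST1H1C was at 27.7 ± 3.24, 113 ± 19.1 and 334 ± 30.4 RPKM (SD, n = 3 each). HIST1H1C thus moved from place 7 among the 38 tested members with siNC to place 4 with siZIP7_1 and place 1 with siZIP7_2, while H1F0 held places 2, 1 and 3. H2AFZ, the variant found at active promoters, held places 1, 2 and 2. The cluster share of the summed H1 RPKM was 8.61% ± 0.57 with siNC, 18.8% ± 1.18 with siZIP7_1 and 61.4% ± 0.52 with siZIP7_2. The annotated length of HIST1H1C is 642 bases and that of H1F0 is 2344 bases, and reads wholly past the end of a model are not counted for its gene. Length was that of all annotated exons of a gene together. H2AFZ was thus divided by 2303 bases, although its coding transcript H2AFZ-201 has 979 bases. A message shorter than its model would be placed too low, so the places and shares depend on the gene models.

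**Figure D3:**
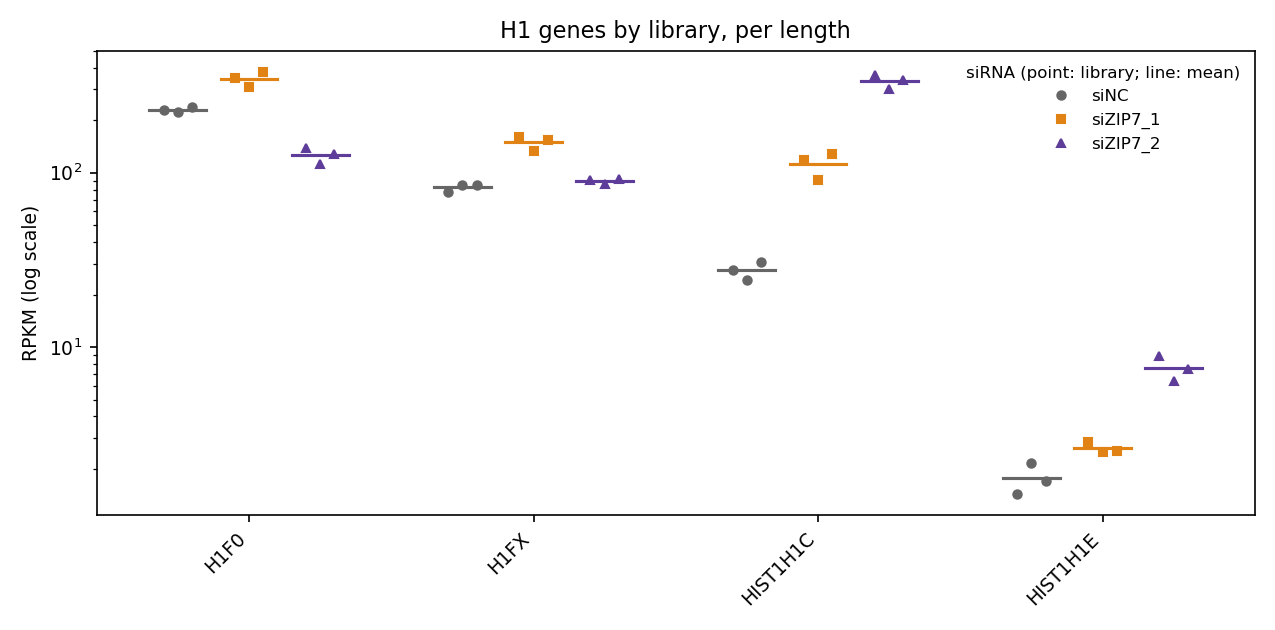
Level per length (RPKM, log axis) of the 4 H1 genes with a group mean of at least 5 CPM, in each library. Points are libraries and lines are group means. HIST1H1C lies below H1F0 in every siNC and siZIP7_1 library and above it in every siZIP7_2 library.

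H2A and H2B form the dimers that flank the central tetramer of the nucleosome, and their cluster genes gave most of the called rises. Of 6 tested H2A cluster genes, 3 rose and 1 fell with siZIP7_1, and 5 rose and 1 fell with siZIP7_2. All 10 tested H2B cluster genes rose with siZIP7_2 and 9 with siZIP7_1. Over all genes tested, 34.8% rose with siZIP7_1 and 38.5% with siZIP7_2. However, HIST1H2AB, HIST1H2AI, HIST1H2AK, HIST1H2BB, HIST1H2BO and HIST2H2BF did not reach the filter's level in every siNC library. Their being tested was itself tied to a difference between groups. HIST1H2AC (ENSG00000180573, chromosome 6, 26124145 to 26139116, plus strand) was at 9.98, 9.88 and 12.3 CPM in siNC, 92.0, 73.6 and 97.1 CPM in siZIP7_1 and 152, 134 and 151 CPM in siZIP7_2. The groups did not overlap, and the gene rose 8.14-fold (log2 3.02, SE 0.091, edgeR adjusted p = 6.14e-22) and 13.5-fold (log2 3.75, SE 0.091, edgeR adjusted p = 3.58e-24). HIST2H2BE (ENSG00000184678, chromosome 1, 149884459 to 149886652, minus strand) had the largest called rise of any member with counts in the siNC libraries, in each comparison with siNC. It was at 2.18, 1.68 and 1.78 CPM in siNC, 27.0, 22.2 and 30.5 CPM in siZIP7_1 and 64.7, 48.1 and 55.3 CPM in siZIP7_2. This was 14.1-fold (log2 3.81, SE 0.146, edgeR adjusted p = 1.48e-19) and 29.6-fold (log2 4.89, SE 0.137, edgeR adjusted p = 9.20e-23).

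The other H2B genes differed in how the siRNAs compared. HIST1H2BC was at 1.31, 1.42 and 1.21 CPM in siNC, 8.56, 6.77 and 8.38 CPM in siZIP7_1 and 25.5, 21.9 and 22.9 CPM in siZIP7_2. HIST1H2BJ was at 1.67, 2.06 and 1.74 CPM in siNC, 7.87, 6.60 and 8.28 CPM in siZIP7_1 and 35.6, 34.2 and 38.3 CPM in siZIP7_2. In both, the groups were far apart and siZIP7_2 was the highest, by 2.96-fold and 4.74-fold over siZIP7_1. HIST1H2BD was at 6.50, 5.80 and 7.26 CPM in siNC, 26.7, 23.7 and 28.3 CPM in siZIP7_1 and 34.9, 32.8 and 36.5 CPM in siZIP7_2, so that the siRNAs differed by 1.32-fold (edgeR adjusted p = 8.24e-06). HIST1H2BK was at 4.72, 4.12 and 4.41 CPM in siNC, 15.7, 16.3 and 17.5 CPM in siZIP7_1 and 25, 26.1 and 27.8 CPM in siZIP7_2. The groups of HIST1H2BK did not overlap, but 74.1% of its annotated length is shared in sequence with other genes, so its counts are uncertain.

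HIST1H2BE went the other way between the siRNAs. It was at 0.581, 0.644 and 0.712 CPM in siNC, 6.34, 5.12 and 7.22 CPM in siZIP7_1 and 3.03, 2.83 and 3.11 CPM in siZIP7_2. It rose 9.59-fold with siZIP7_1 and 4.59-fold with siZIP7_2, and it was the only cluster gene called lower with siZIP7_2 than with siZIP7_1 (log2 difference -1.06, SE 0.137, edgeR adjusted p = 4.81e-08). In the annotation, 28.2% of its length is overlapped by another gene and 30.5% is shared in sequence, so its counts are uncertain. HIST1H2BO was at 0.472, 0.344 and 0.641 CPM in siNC, 0.765, 0.893 and 0.878 CPM in siZIP7_1 and 7.18, 7.99 and 7.57 CPM in siZIP7_2. It thus rose 1.71-fold with siZIP7_1, a call lost without siNC replicate 2 (log2 fold change 0.61), and 15.3-fold with siZIP7_2.

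**Figure D4:**
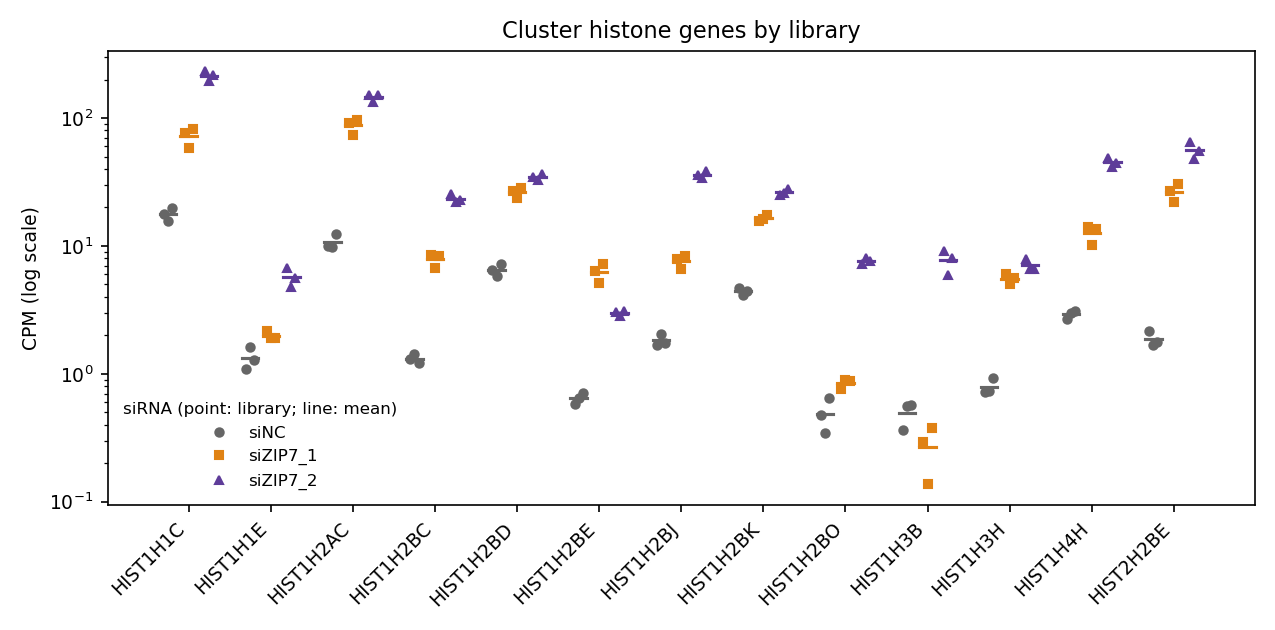
CPM (log axis) of the 13 cluster genes with a group mean of at least 5 CPM, in each library. Points are libraries and lines are group means. In 12 of the genes every siZIP7_1 library lies above every siNC library, and HIST1H3B is the exception. HIST1H2BE is the 1 gene where siZIP7_1 is above siZIP7_2.

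H3 and H4 make up the central tetramer, and their cluster genes summed to 2.53 ± 0.55 CPM for H3 and 5.62 ± 0.26 CPM for H4 in siNC (SD, n = 3 each). Of 6 tested H3 cluster genes, 2 rose with siZIP7_1 and 5 with siZIP7_2, and of 4 tested H4 genes 2 rose and 1 fell with siZIP7_1 and 3 rose and 1 fell with siZIP7_2. The share of all genes tested that rose was 34.8% with siZIP7_1, near that of the H3 genes, and 38.5% with siZIP7_2. The shares that fell were 35.9% and 39.3%. Here HIST1H3A, HIST1H3C, HIST1H3J, HIST2H3D and HIST1H4C did not reach the filter's level in every siNC library. The counts by type are limited in the same way as for H2A and H2B. HIST1H3H was at 0.726, 0.730 and 0.926 CPM in siNC, 6.08, 5.02 and 5.58 CPM in siZIP7_1 and 7.96, 6.61 and 6.61 CPM in siZIP7_2. The groups of HIST1H3H did not overlap, with rises of 6.93-fold and 8.79-fold. HIST1H3B was at 0.363, 0.559 and 0.570 CPM in siNC, 0.291, 0.137 and 0.377 CPM in siZIP7_1 and 9.16, 5.92 and 8.11 CPM in siZIP7_2. The first pair of groups overlapped (log2 fold change -0.86, SE 0.425, edgeR adjusted p = 0.0740), and the siZIP7_2 libraries stood 15.4-fold above siNC (log2 3.95, SE 0.223, edgeR adjusted p = 1.13e-15) and 27.9-fold above siZIP7_1. HIST1H4H was at 2.69, 3.01 and 3.10 CPM in siNC, 14.0, 10.2 and 13.6 CPM in siZIP7_1 and 48.9, 41.7 and 44.8 CPM in siZIP7_2, rising 4.30-fold and 15.4-fold with no overlap of groups. HIST1H4A was 1 of the 2 cluster genes called lower, at 1.49, 1.46 and 1.25 CPM in siNC, 0.328, 0.515 and 0.314 CPM in siZIP7_1 and 0.116, 0.263 and 0.269 CPM in siZIP7_2.

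The remaining tested cluster genes stayed under 5 CPM in every group. HIST1H1T, HIST1H2AB, HIST1H2AK, HIST1H2BB, HIST1H3A, HIST1H3C and HIST1H4C, like HIST1H3B, were called higher with siZIP7_2 and did not pass the threshold with siZIP7_1. Apart from HIST1H3B, these genes did not reach the filter's level in every siNC library. Group means of HIST1H4C were 0.331, 0.238 and 1.5 CPM in siNC, siZIP7_1 and siZIP7_2, and those of HIST1H3C were 0.521, 0.655 and 2.12 CPM. HIST1H2AG, HIST1H2AI, HIST1H2BN, HIST2H2BF, HIST2H3D and HIST4H4 were called higher with each siRNA. Group means of HIST2H2BF were 0.309, 1.39 and 3.42 CPM, and those of HIST4H4, the single gene of its cluster, were 0.627, 1.46 and 2.52 CPM. HIST1H3J did not pass in either comparison with siNC. The exons of HIST1H2AK lie wholly within another gene of the annotation, and 80.4% of the length of HIST2H3D and 62.3% of that of HIST1H2AI are shared in sequence with other genes, so these counts are uncertain.

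By cluster, HIST1 summed to 55.6 ± 4.29, 257 ± 32.9 and 573 ± 39.3 CPM in siNC, siZIP7_1 and siZIP7_2, and HIST2 to 3.24 ± 0.11, 28.8 ± 4.41 and 60.6 ± 8.26 CPM (SD, n = 3 each). The HIST1 sum was thus 4.62 and 10.3 times its siNC mean and the HIST2 sum 8.89 and 18.7 times. HIST2H2BE alone made up most of the HIST2 sum in each group, so that sum does not stand for the whole cluster. Of the summed cluster CPM, HIST2H2BE held 3.16%, 9.26% and 8.81% with siNC, siZIP7_1 and siZIP7_2. HIST2H2AC, of the same cluster, was called lower with each siRNA. None of the 3 HIST3 genes was tested, and their summed level reached at most 0.0384 CPM in a library. Per length, HIST1H1C held 35.4%, 37.6% and 46.1% of the summed cluster RPKM with siNC, siZIP7_1 and siZIP7_2, and HIST1H2AC held 8.22%, 17.6% and 12.0%. The library siZIP7_1 2 was the lowest of its group in 11 of the 13 named cluster genes, and so was siZIP7_2 2 in its own.

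What the gene models hold differed between the cluster genes. In 30 of the 71, an annotated transcript runs at least 30 bases past the stem-loop, and in 39 the model holds no stem-loop at all. Of the 30, 12 were tested and all 12 rose with siZIP7_1 and with siZIP7_2. Of the 39, 17 were tested, of which 6 rose and 2 fell with siZIP7_1 and 14 rose and 2 fell with siZIP7_2. In all genes tested, 34.8% rose and 35.9% fell with siZIP7_1, and 38.5% rose and 39.3% fell with siZIP7_2. With siZIP7_1, the 6 of 17 that rose thus lay near the share of all genes. Among the 12 tested cluster genes that did not reach the filter's level in every siNC library, only HIST1H2AI and HIST2H2BF were of the 30. The others were of the 39, and their being tested was itself tied to a difference between groups. Counts of the 30 and of the 39 therefore cannot be set against each other. Median exonic length was 1656 bases in the first class and 393 bases in the other, so the models of the second class are close to the coding length. Of the tested members, 28 have under 20% of their length shared with or overlapped by other genes, and among these 14 rose and 5 fell with siZIP7_1 and 22 rose and 6 fell with siZIP7_2.

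Many H2A and H2B genes stand head to head and share the DNA between their starts, so neighbours could be compared directly. HIST1H2BC and HIST1H2AC start 219 bases apart in GENCODE and both rose, by 2.59 and 3.02 on the log2 scale with siZIP7_1 and by 4.16 and 3.75 with siZIP7_2. HIST1H2BJ and HIST1H2AG start 292 bases apart, and their log2 fold changes were 2.06 and 1.39 with siZIP7_1 and 4.31 and 1.07 with siZIP7_2. HIST2H2BE and HIST2H2AC start 323 bases apart and moved apart: HIST2H2BE rose by 3.81 and 4.89, while HIST2H2AC fell to 0.314 and 0.447 times its siNC level. HIST2H2AC was at 0.508, 0.687 and 0.783 CPM in siNC, 0.182, 0.309 and 0.126 CPM in siZIP7_1 and 0.0776, 0.296 and 0.50 CPM in siZIP7_2. Its groups were below siNC in both cases (edgeR adjusted p = 0.00106 and 0.0109), but the counts were 2 to 22 per library, 30.5% of its length is shared in sequence with other genes, and the second call was lost with DESeq2, without siNC replicate 3 (log2 fold change -1.0) and without siZIP7_2 replicate 1 (-0.74).

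Windows at these pairs are shown because each covers all or most of the stretch that the neighbours share. They are RefSeq promoter windows on GRCh38.p14, from 250 bases before to 50 bases after the start of the named gene, 5′ to 3′ on its strand. Capitals mark the box CCAAT, the box TATAAA and the octamer ATTTGCAT, on either strand, and matches that overlap run together.
HIST1H2AC (chr6:26123922-26124221, plus strand): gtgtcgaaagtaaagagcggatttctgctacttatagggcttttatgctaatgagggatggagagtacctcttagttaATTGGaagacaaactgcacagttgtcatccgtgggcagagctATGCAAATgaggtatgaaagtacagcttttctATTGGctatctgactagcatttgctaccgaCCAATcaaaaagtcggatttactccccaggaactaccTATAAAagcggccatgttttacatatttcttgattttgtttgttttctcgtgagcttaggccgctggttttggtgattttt
HIST1H2BJ (chr6:27132746-27133045, minus strand): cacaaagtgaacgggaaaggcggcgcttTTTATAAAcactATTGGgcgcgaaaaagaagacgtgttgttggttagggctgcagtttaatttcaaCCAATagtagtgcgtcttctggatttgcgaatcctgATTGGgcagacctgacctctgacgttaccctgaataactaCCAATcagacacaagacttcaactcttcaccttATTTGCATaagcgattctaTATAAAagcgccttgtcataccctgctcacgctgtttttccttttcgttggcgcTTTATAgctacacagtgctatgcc
HIST2H2BE (chr1:149886633-149886932, minus strand): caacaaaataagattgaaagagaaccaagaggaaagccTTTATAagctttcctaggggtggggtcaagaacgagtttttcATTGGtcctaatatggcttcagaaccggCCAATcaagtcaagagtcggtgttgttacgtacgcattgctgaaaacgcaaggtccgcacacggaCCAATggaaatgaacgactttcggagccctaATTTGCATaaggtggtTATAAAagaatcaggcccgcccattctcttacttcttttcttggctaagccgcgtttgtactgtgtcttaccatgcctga
Windows were found for 75 of the 81 members, 66 cluster genes and 9 replacement genes, and HIST1H2AD and HIST1H3D have the same window. CCAAT was present in 84.8% of the cluster windows and in 34.6% of all 35116 windows of the table, TATAAA in 66.7% and 11.5%, and the octamer in 39.4% and 1.77%. The octamer was found in 11 of 16 H2A windows and 14 of 18 H2B windows, and head-to-head neighbours share part of their windows. Among cluster genes, 46.2% of the windows of the 26 tested genes with a window and 35.0% of those of the 40 not tested held the octamer. All 3 motifs were present in the windows of HIST2H2BE and of HIST2H2AC, which differed in direction. A match is a match of letters and not a measured site.

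Replacement genes outside H1 changed mostly downward. H2AFZ was at 493, 571 and 537 CPM in siNC, 412, 442 and 427 CPM in siZIP7_1 and 371, 386 and 402 CPM in siZIP7_2. H2AFX, whose protein marks DNA breaks when phosphorylated and whose message can end in the stem-loop or in a poly(A) tail, was at 197, 206 and 193 CPM in siNC, 184, 180 and 177 CPM in siZIP7_1 and 103, 105 and 105 CPM in siZIP7_2. Each stood in falling order with no overlap, and H2AFX fell by 0.14 (SE 0.044) and by 0.93 (SE 0.046) on the log2 scale. The smaller of these was lost when library size alone was used (log2 fold change -0.05) and without siNC replicate 2 (-0.11). H2AFY, which encodes macroH2A1, a variant of silent chromatin, was at 307, 325 and 300 CPM in siNC, 271, 278 and 267 CPM in siZIP7_1 and 202, 222 and 219 CPM in siZIP7_2, and it fell by 0.19 and by 0.53. In the annotation, 30.9% of the length of H2AFY is overlapped by another gene.

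In H2AFV and H3F3B the lower group was siZIP7_1. H2AFV, a close relative of H2AFZ, was at 187, 203 and 196 CPM in siNC, 73.9, 78.7 and 74.5 CPM in siZIP7_1 and 156, 167 and 164 CPM in siZIP7_2. H3F3B, which encodes the replacement histone H3.3, was at 372, 385 and 387 CPM in siNC, 252, 264 and 257 CPM in siZIP7_1 and 348, 360 and 362 CPM in siZIP7_2. H2AFV fell by 1.37 (SE 0.049, edgeR adjusted p = 3.03e-20) and H3F3B by 0.57 (SE 0.045, edgeR adjusted p = 2.94e-12) on the log2 scale with siZIP7_1. With siZIP7_2, H2AFV fell by 0.27, and H3F3B by 0.10 at an edgeR adjusted p of 0.0485, a call that did not hold under most alternatives and that changed sign with upper-quartile normalization. H2AFJ, an H2A variant, was at 44.0, 43.8 and 43.2 CPM in siNC, 45.8, 47.3 and 48.7 CPM in siZIP7_1 and 59.9, 53.5 and 60.2 CPM in siZIP7_2. It rose by 0.40 (SE 0.055) with siZIP7_2, and its log2 fold change with siZIP7_1 was 0.11 (edgeR adjusted p = 0.0670). H3F3A, the other H3.3 gene, was at 1.33 to 2.90 CPM in all libraries. Of its annotated length, 11.7% is shared in sequence with other genes, and the tables hold no reads with several alignments. Its counts are therefore uncertain and may be too low, but the part of shared sequence in its low level was not tested. H3F3A was called higher with siZIP7_2 (log2 fold change 0.48, edgeR adjusted p = 0.0257) although the groups overlapped. H2AFY2 was not tested.

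**Figure D5:**
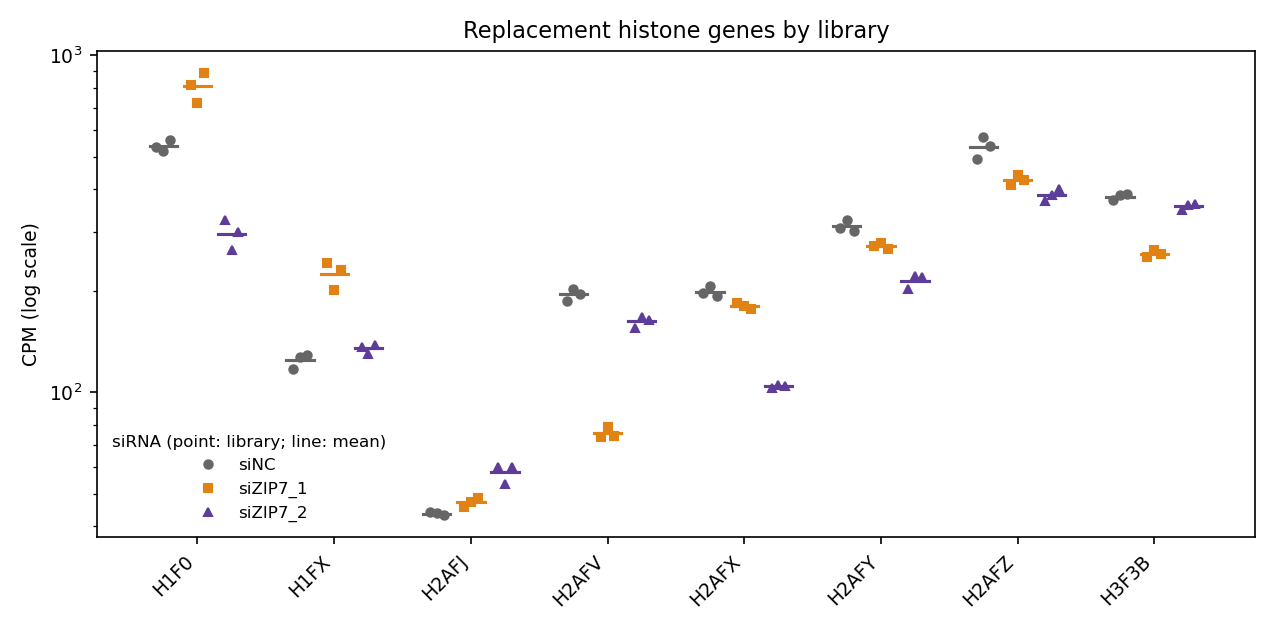
CPM (log axis) of the 8 replacement genes with a group mean of at least 5 CPM, in each library. Points are libraries and lines are group means. H1F0 is above siNC with siZIP7_1 and below it with siZIP7_2, and H2AFV, H2AFX, H2AFY, H2AFZ and H3F3B lie below siNC in each siZIP7 group.

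Genes that copy DNA mostly fell. Among all genes tested, 34.8% rose and 35.9% fell with siZIP7_1, and 38.5% rose and 39.3% fell with siZIP7_2. Of 50 DNA replication genes, all tested, 49 fell and none rose with siZIP7_1, where GMNN was the exception, and 48 fell and 1, RFC1, rose with siZIP7_2. DESeq2 also called 0 of them higher with siZIP7_1, and in edgeR none had a positive log2 fold change there, so 0 were higher at any unadjusted p. Their summed level was 6089, 6254 and 6011 CPM in the siNC libraries, 3597, 3845 and 3563 CPM in the siZIP7_1 libraries and 2579, 2830 and 2773 CPM in the siZIP7_2 libraries. The groups did not overlap, and the order was the reverse of that of the cluster histones. MCM2, a subunit of the replicative helicase, was at 167, 95.8 and 45.2 CPM (group means with siNC, siZIP7_1 and siZIP7_2), PCNA, the sliding clamp, at 184, 148 and 54.0 CPM, and RRM2, a subunit of the enzyme that makes deoxynucleotides, at 237, 109 and 117 CPM. CDC6, which loads the helicase, was at 169, 84.4 and 109 CPM. All 4 fell with each siRNA. Of 20 mitosis genes, 18 fell in each comparison with siNC and the others did not pass, with MKI67 at 579, 318 and 447 CPM and CCNB1, the mitotic cyclin, at 240, 145 and 218 CPM.

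Genes that regulate, process and deliver histones were read against the shares of all genes tested that fell, given above. Of 16 genes of histone mRNA synthesis and processing, 2 rose and 10 fell with siZIP7_1, and 1 rose and 12 fell with siZIP7_2. NPAT, the coactivator of the histone clusters, was at 57.2, 51.7 and 40.8 CPM and fell by 0.15 and by 0.49 on the log2 scale. CASP8AP2, which is found with NPAT at the histone locus body, was at 32.5, 24.9 and 10.5 CPM and fell by 0.38 and by 1.63. SLBP was at 90.2, 85.5 and 57.9 CPM, with a log2 fold change of -0.08 (edgeR adjusted p = 0.183) with siZIP7_1 and a fall by 0.64 with siZIP7_2. LSM11, of the U7 particle that cuts histone pre-mRNA, was at 25.9, 21.0 and 23.4 CPM, falling by 0.31 with siZIP7_1 and at a log2 fold change of -0.15 (edgeR adjusted p = 0.0930) with siZIP7_2. Of 12 chaperones that act with replication, 1 rose and 11 fell with siZIP7_1, and 11 fell with siZIP7_2, with CHAF1A at 92.7, 47.8 and 49.1 CPM and ASF1B at 146, 102 and 51.7 CPM. Of 16 chaperones and remodellers of replacement histones, 5 rose and 6 fell with siZIP7_1, close to the shares over all genes (34.8% and 35.9%), and 4 rose and 9 fell with siZIP7_2, where HIRA, the chaperone of H3.3, was at 14.4, 14.9 and 8.10 CPM.

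Markers of arrest did not move one way. Of 16 genes of cell cycle exit, 14 were tested. With siZIP7_1, 7 rose and 4 fell, where 34.8% of all genes tested rose and 35.9% fell. With siZIP7_2, 10 rose and 4 fell, where 38.5% of all genes tested rose and 39.3% fell. The list, which includes CDKN1A, summed to 795 ± 17.9, 746 ± 21.2 and 985 ± 22.7 CPM in siNC, siZIP7_1 and siZIP7_2 (SD, n = 3 each). CDKN1A, the inhibitor p21, was at 113 CPM in siNC, 24.4 CPM in siZIP7_1 and 269 CPM in siZIP7_2. It fell by 2.21 on the log2 scale with siZIP7_1 and rose by 1.25 with siZIP7_2, and so was called in opposite directions, the reverse of those of H1F0.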

How the data were processed

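RNA of 9 libraries was sequenced as single reads. The tables deposited by the authors hold whole-number counts for each Ensembl identifier, with no normalization, and the submitters' processing notes name Trim Galore 0.4.1, FastQC 0.11.2, STAR, HTSeq 0.6.1 and DESeq2 1.16.1. The genome build, annotation and strand setting are not given in the sources used here, so reads from overlapping or antisense genes may not be separated. Summary lines of the counting program were left out (7.43 to 11.5% of reads on no gene and 2.67 to 2.91% ambiguous). Of 58395 identifiers, 58275 were in GENCODE release 29. The members and lists were chosen with earlier results of these data known.

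The fit used edgeR 4.0.16 in R 4.3.3 (TMM factors, low-count filter, quasi-likelihood test, Benjamini-Hochberg adjustment at 0.05) in 1 fit of 3 groups with 6 residual degrees of freedom. The biological coefficient of variation was 4.50%. RPKM used GENCODE exonic length. RefSeq promoter windows were matched by symbol or synonym, and the RefSeq gene had to overlap the GENCODE gene. Values in every library are given for members with a group mean of at least 5 CPM, other tested members by name or range, and genes of the other lists by a fixed set of names. HIST1H4A, HIST2H2AC, HIST2H2BF, HIST4H4, HIST1H3C, HIST1H4C, HIST1H1T and HIST1H2AG were picked for values after these were seen, as were RFC1 and GMNN. The steps were tested on simulated counts with known changes. Alternatives were DESeq2 1.42.0, other normalizations and filters, the replicate number as a block, fits to the groups compared, a test against a 1.5-fold change, and each library left out in turn. No libraries of a group were alike within counting error (chi-squared per gene of 2.49 to 6.54 over 9 pairs). The values of 1 marker gene are not reported here.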

Additional observations from a re-analysis of the deposited data

Results flagged for a closer look

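H1F0, the gene of linker histone H1.0, is listed because the test of the difference between the siRNAs was called and every siZIP7_1 library lay above every siNC library while every siZIP7_2 library lay below. The log2 difference of siZIP7_2 against siZIP7_1 was -1.45 (SE 0.065, edgeR adjusted p = 3.72e-18), and it stayed between -1.53 and -1.38 when each library was left out in turn. Group means were 538, 809 and 296 CPM with siNC, siZIP7_1 and siZIP7_2. Both comparisons with siNC use the same control libraries. Groups of 3 were not searched for single libraries that stand apart.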

How the results depend on the processing

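Of 1995 values of single histone genes under an alternative, 1893 kept their direction and their side of the threshold, 62 lost the call, 37 gained one and 3 changed sign. The 3 were H3F3B with siZIP7_2 against siNC under upper-quartile normalization (0.0098), HIST1H3J in that comparison without siZIP7_2 replicate 3 (-0.136) and HIST2H2AC between the siRNAs without that library (-0.0595). None of the 3 passed the threshold there. Leaving out each library in turn gave -0.136 to 0.397 for that value of HIST1H3J and -0.0595 to 0.929 for that of HIST2H2AC. Tested against a 1.5-fold change, histone genes that fell numbered 3 in each comparison with siNC, those higher with siZIP7_2 than with siZIP7_1 numbered 17, DNA replication genes that fell with siZIP7_1 numbered 28, and those that rose with siZIP7_2 numbered 0 against siNC and 2 against siZIP7_1. With at least 10 counts in every library, 23 histone genes were tested, of which 17 rose and 5 fell with siZIP7_2 against siNC and 15 were higher with siZIP7_2 than with siZIP7_1. This filter removes genes that were low in the siNC libraries. Upper-quartile normalization moved the median of all genes by 0.11 with siZIP7_2 and that of the histone genes to 2.18. Leaving out each library gave 20 to 22 histone genes that rose with siZIP7_1 and 28 to 30 with siZIP7_2. Libraries of the same number had correlations of deviations between -0.05 and 0.08 (9 pairs), so the numbers were not taken to pair libraries. With a replicate block, 20 rose with siZIP7_1 and 29 with siZIP7_2, and no count moved by over 1.5 times. Limits on depth bear on the 17 tested members under 5 CPM and on the members at 0, where 3 counts are the smallest level taken as detected.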
